A study of Rattus norvegicus with 9 samples.

Results

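Chaperones help other proteins fold, and the genes described here belong to the families that do this mainly in the cytosol and the mitochondria. Members were chosen by symbol: those that start with Dnaj, Hspa, Hsp90a, Hsph, Hspd or Hspe, those that start with Cct and a digit from 2 to 8, those that start with Bag and a digit, and Ahsa1. Hspa5 and Bag3 were left out. The rule found 69 of the 12609 gene symbols measured, and 65 of them passed the filter on low values, a level of 1 TPM or more in 3 or more of the 9 libraries; 10180 symbols in all passed it. TPM is a share of the transcripts in a library, corrected for transcript length, so levels of different genes can be set side by side. The members that did not pass were Dnajc22, Cct6b, Cct8l2 and Dnajc5g, and no member passed through 1 group only. The lowest members inside the filter were Hspa1a, Dnajc17 and Hspa1l, whose level in the third highest library was 1.61, 1.84 and 2.69 TPM. Just outside it stood Dnajc22, Cct6b and Cct8l2, at 0.727, 0.426 and 0.198 TPM by the same measure. Dnajc6 was not analysed here.

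The study measured RNA in rat brain after middle cerebral artery occlusion (MCAO), a surgical model of ischemic stroke, and asked which genes NMN (nicotinamide mononucleotide, from which cells make the coenzyme NAD) influences. The 3 groups had 3 libraries each. Sham rats had surgery without the occlusion and carry the treatment label PBS. IR rats had MCAO and the same label, and IR+NMN rats had MCAO and an injection of NMN at 100 mg/kg in saline. The sources used here give no strain, sex, age, brain region, occlusion length, or time of collection or injection. Nothing in the labels ties the libraries to separate animals, so every p-value below speaks only of the spread between libraries, and that spread may be technical.

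Chaperones work in relays. HSP70 proteins bind exposed stretches of unfolded chains with the help of J-domain proteins (the DNAJA, DNAJB and DNAJC families), which bring clients and set off ATP hydrolysis, and of nucleotide exchange factors such as the BAG proteins and HSP110; HSP90 then matures a chosen set of clients such as kinases and steroid receptors. Chaperonins are barrels that enclose a folding chain: CCT does so for actin and tubulin in the cytosol, and HSP60 (Hspd1) with its lid HSP10 (Hspe1) does so in the mitochondrial matrix. Heat shock and loss of blood flow are known to raise many of these genes through the transcription factor HSF1, while others, such as Hspa8 in brain, are made at a high level all the time.

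After the occlusion the families differed in how far they stood from Sham. Together they made up between 0.883% and 1.20% of the TPM of a library, and their sum was 9022 ± 282 TPM in Sham (mean ± SD, n = 3 libraries here and below), 11433 ± 543 TPM in IR and 11437 ± 383 TPM in IR+NMN. Every IR and every IR+NMN library lay above every Sham library in this sum. HSP90 with its activator Ahsa1 held the largest share, at 2845 ± 29.2 TPM in Sham, 4285 ± 241 TPM in IR and 4021 ± 94.1 TPM in IR+NMN. The HSP70 family summed to 2140 ± 53.4, 2308 ± 273 and 2402 ± 50.9 TPM in the same order, and the CCT family to 1214 ± 41.0, 1439 ± 43.8 and 1558 ± 105 TPM. The mitochondrial chaperonin pair summed to 471 ± 34.4 TPM in Sham, 845 ± 117 TPM in IR and 973 ± 231 TPM in IR+NMN, with every library of both occluded groups above every Sham library. The DNAJA sums were 588 ± 49.6 TPM in Sham, 816 ± 94.3 TPM in IR and 726 ± 21.0 TPM in IR+NMN, again with Sham below every other library. The BAG, DNAJB, DNAJC and HSP110 sums overlapped between the groups, and the HSP70 sums overlapped between Sham and IR.

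In IR against Sham, 5 of the 65 members were higher and none was lower at an adjusted p under 0.05, where p comes from limma on log2(TPM + 1) and is adjusted over all 10180 genes. That is 7.69% of the members, while 1.14% of all genes tested were higher, 5.26% were lower and 6.39% were called in either direction. With no adjustment, 10 members were higher and 5 lower at p under 0.05. Over all 10180 genes, 2884 had such a p in either direction, a larger share than among the members. The members higher in IR were Hsp90aa1, Dnaja1, Ahsa1, Hspe1 and Cct5. In IR+NMN against Sham, 10 members (15.4%) were higher, beside 4.21% of all genes, and 1 member was lower, beside 6.13% of all genes (10.3% in either direction). The higher members were the same 5 with Hspd1, Cct4, Cct6a, Dnajc3 and Hspa14, and the lower was Dnajc4. In IR+NMN against IR, 1 member, Hspa2, was higher (1.54%, beside 2.30% of all genes, which is not above the background). None was lower, beside 0.0589% of all genes (2.36% in either direction). Before adjustment 6 members were higher and 0 lower, beside 1359 of the 10180 genes in either direction, again a larger share. Between these groups 8 members lay above without overlap and 2 below, beside 13.7% and 3.22% of all genes. The 3 comparisons share libraries, so they are not independent of each other.

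A shift common to all genes lies under these counts. The median change of all 10180 genes was -0.21 (log2) in IR against Sham and -0.14 in IR+NMN against Sham, and both were near 0 after quantile or median-of-ratios scaling. The members' medians in the same comparisons were 0.02 and 0.14, and 54 and 53 of the 65 members stood above the median of all genes. Over all genes, the split of 116 higher and 535 lower calls in IR against Sham became 290 and 292 with quantile scaling, and 276 and 285 with median-of-ratios scaling. The split of 429 and 624 in IR+NMN against Sham became 717 and 692, or 686 and 596, and the split of 234 and 6 in IR+NMN against IR became 6 and 1, or 70 and 3. With either scaling the members higher or lower in IR against Sham numbered 10 in place of 5, and Hsp90aa1 and Dnaja1 passed under both.

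**Figure D1:**
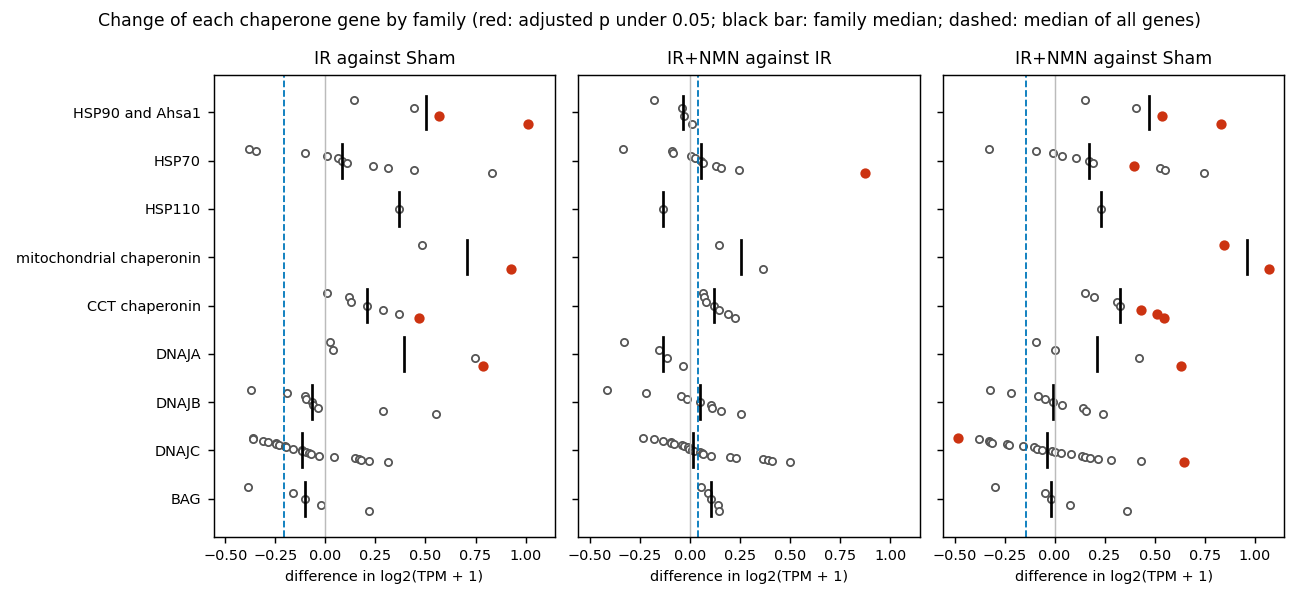
Log2 change of each member on the log2(TPM + 1) scale in the 3 comparisons, arranged by family, with 1 point per member; filled red points passed the test at an adjusted p under 0.05, black bars are family medians and the dashed line is the median of all genes. The HSP90, mitochondrial chaperonin, CCT and DNAJA members lie mainly to the right of 0 in both comparisons with Sham, while DNAJC members scatter around it; the DNAJB, DNAJC and BAG medians in IR against Sham, -0.07, -0.12 and -0.10, turn to 0.09, 0.06 and 0.12 with quantile scaling.

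Other features of the libraries moved with the groups, and their part in the results was not tested. All 10 neuron markers of the list passed the filter, as did all 7 for astrocytes, all 9 for microglia and phagocytes and all 8 for oligodendrocytes. For endothelium and for red blood cells 6 of 7 passed, and for choroid plexus and ependyma only 3 of 6. None of the lists was at 0. Summed astrocyte markers ranged from 3782 to 4902 TPM in Sham, 5289 to 7026 TPM in IR and 6141 to 8606 TPM in IR+NMN, with no overlap between Sham and either group. Summed neuron markers ranged from 6203 to 7808, 4825 to 7548 and 4589 to 5658 TPM, and microglia and phagocyte markers from 204 to 233, 186 to 189 and 270 to 1004 TPM. Hemoglobin and other red blood cell genes ranged from 4079 to 9336 TPM in Sham but from 732 to 900 TPM in IR and 825 to 1011 TPM in IR+NMN. Choroid plexus and ependymal genes ranged from 29.4 to 52.6, 3.70 to 6.12 and 8.06 to 11.4 TPM, endothelial genes from 121 to 168, 83.4 to 103 and 81.4 to 115 TPM, and oligodendrocyte genes, which overlapped throughout, from 5888 to 12851, 4076 to 7691 and 3596 to 9088 TPM. Ribosomal protein genes took 5.49% to 6.88%, 5.89% to 8.71% and 7.27% to 11.5% of the TPM. Fewer cells of a type and less RNA per cell cannot be told apart in such bulk samples. IR 1 and IR+NMN 2 stood apart from the other libraries of their groups. IR 1 was the highest IR library in 41 of the 65 members (63.1%, beside 65.4% of all genes), and IR+NMN 2 was the highest of its group in 36 (55.4%, beside 64.1%). Without both, the members called numbered 9 in IR against Sham (6 higher, 3 lower) and 16 in IR+NMN against Sham (13 higher, 3 lower). Between the occluded groups 2 were called, higher in IR+NMN. In the same order, the calls over all 10180 genes numbered 2514 (313 higher), 2989 (705 higher) and 533 (426 higher). Each total is a larger share than that of the members.

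The inducible HSP90 gene was higher in both occluded groups than in Sham, while its constitutive partner was not called. Hsp90aa1 encodes HSP90-alpha, the stress-inducible form of the cytosolic protein. It read 1031, 1004 and 1165 TPM in Sham, 2043, 2069 and 2341 TPM in IR, and 1979.8, 1828 and 1875 TPM in IR+NMN. The Sham libraries lay below all 6 others, and the IR+NMN libraries lay below the IR libraries without overlap. Hsp90aa1 rose by 1.01 in IR against Sham (log2 change on the log2(TPM + 1) scale, as are all changes below; SE 0.12; adjusted p = 0.0046) and by 0.83 in IR+NMN against Sham (SE 0.12, adjusted p = 0.00591). The difference between IR+NMN and IR was -0.18 (SE 0.12, adjusted p = 0.668). Both calls against Sham held in all 9 fits that left out 1 library, with an adjusted p of at most 0.0377, and under each of the other settings tried. The gene was summed from 29 rows of the table, of which 14 averaged at least 1 TPM and 13 of these were higher on average in IR than in Sham. RefSeq lists 16 pseudogenes under this name, and the sources used here do not say how the authors' counting shared reads among such copies.

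Hsp90ab1, the constitutive HSP90-beta, read 1348, 1284 and 1133 TPM in Sham, 1692, 1206 and 1290.2 TPM in IR, and 1233, 1597 and 1369.8 TPM in IR+NMN. The groups overlapped, and the changes against Sham were 0.14 (adjusted p = 0.592) and 0.15 (adjusted p = 0.555). The ratio of the inducible to the constitutive gene was 0.765, 0.781 and 1.03 in Sham, 1.21, 1.71 and 1.81 in IR, and 1.61, 1.14 and 1.37 in IR+NMN. Sham did not overlap either occluded group in this ratio, which was chosen after its values were seen. An exact permutation test with 3 libraries against 3 cannot give a two-sided p below 0.1, the value it gave for both; over the 9 ratio tests made this is 0.18 after adjustment. Ahsa1, which speeds the ATPase of HSP90, read 213, 189.8 and 169.8 TPM in Sham, 297, 273 and 276 TPM in IR, and 283, 283 and 262 TPM in IR+NMN. All 6 libraries of the occluded groups lay above Sham. It rose by 0.57 in IR (SE 0.11, adjusted p = 0.0279) and by 0.54 in IR+NMN (SE 0.11, adjusted p = 0.0216). The first call was lost without Sham 2, Sham 3, IR 2 or IR 3, and the second without Sham 2, Sham 3, IR+NMN 1 or IR+NMN 3, with adjusted p-values of up to 0.115 and 0.0891, and the second also in a fit of only these groups. The symbol Hsp90aa1-ps17, a pseudogene that the rule also takes in, read 258, 337 and 404 TPM in Sham, 335, 466 and 567 TPM in IR, and 618, 315 and 419.6 TPM in IR+NMN. Its groups overlapped.

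**Figure D2:**
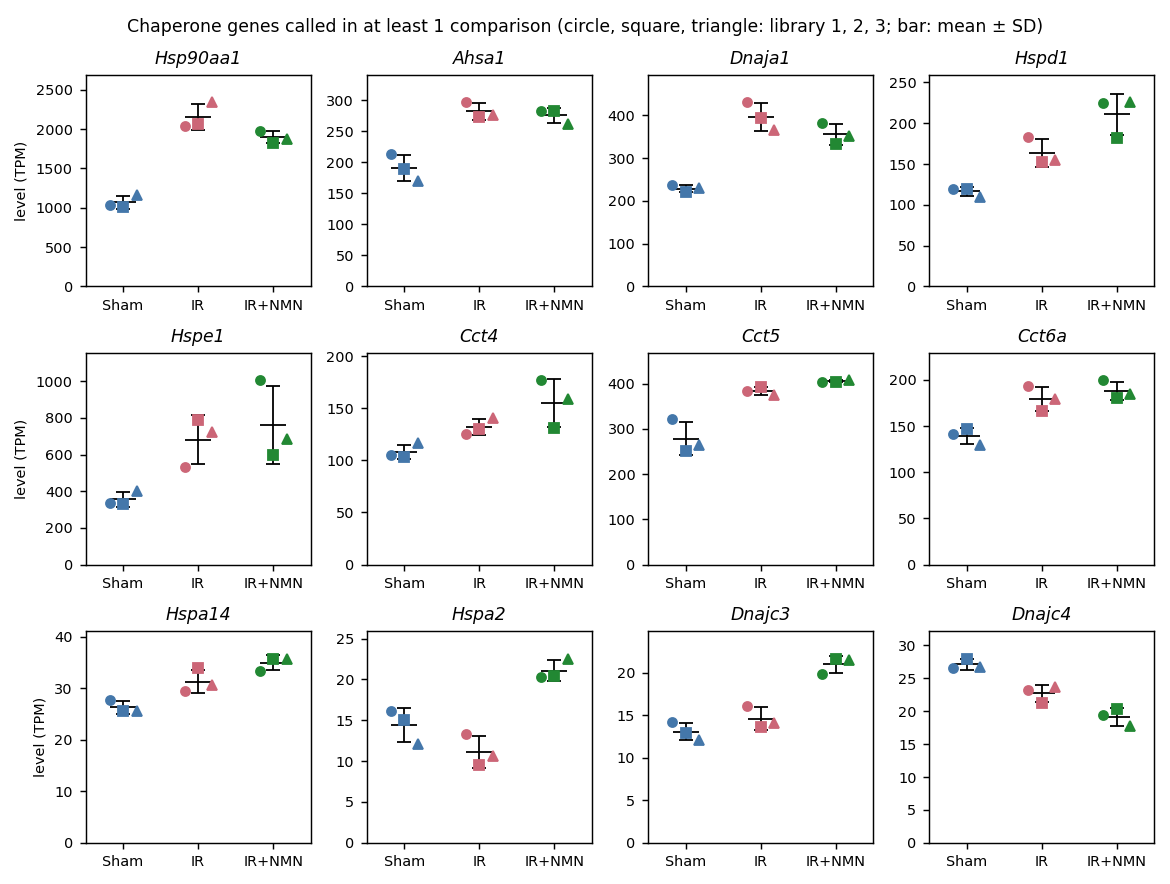
Level in TPM of the 12 members called in at least 1 comparison, with 1 point per library and bars for mean ± SD of the 3 libraries of a group. Hsp90aa1, Dnaja1, Ahsa1, Hspd1 and Hspe1 lie higher in all 6 libraries with the occlusion than in the 3 Sham libraries, while Hspa2 and Dnajc3 stand apart in IR+NMN alone.

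Both genes of the mitochondrial chaperonin lay above Sham in all 6 libraries with the occlusion. Hspe1, the lid of the chaperonin, read 336, 328 and 401 TPM in Sham, 533, 790.0 and 721 TPM in IR, and 1004, 599 and 683 TPM in IR+NMN. The lowest library with the occlusion lay above the highest Sham library. Hspe1 rose by 0.93 in IR (SE 0.22, adjusted p = 0.0436) and by 1.07 in IR+NMN (SE 0.22, adjusted p = 0.0194). The IR call was lost without any 1 of Sham 1, Sham 2, Sham 3, IR 2, IR 3 or IR+NMN 3, with an adjusted p of up to 0.172, and also with median-of-ratios scaling. The IR+NMN call was lost without Sham 1, Sham 2 or IR+NMN 3, with an adjusted p of up to 0.0862.

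Hspd1, the barrel itself, read 119.7, 119 and 109.9 TPM in Sham, 183, 153 and 155 TPM in IR, and 225, 182 and 226 TPM in IR+NMN. All IR libraries were above all Sham libraries, and IR+NMN overlapped IR only through its second library and IR 1. The change was 0.48 in IR (SE 0.13), just outside the threshold at an adjusted p of 0.0537, and Hspd1 rose by 0.85 in IR+NMN against Sham (SE 0.13, adjusted p = 0.00597). The latter held in all 9 fits that left out 1 library, with an adjusted p of at most 0.0344. In IR, the change was called without IR+NMN 2 and under both other scalings. Against IR, IR+NMN differed by 0.36 (adjusted p = 0.213), which became 0.55 (adjusted p = 0.0319) without IR 1 and IR+NMN 2.

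The sum for Hspd1 hides rows that moved in opposite directions. The table lists each of the genes on 1 or more rows with the same symbol and does not say what a row stands for. The highest Hspd1 row read 110.0, 111 and 101 TPM in Sham, 57.4, 53.6 and 52.3 TPM in IR, and 76.2, 60.6 and 79.8 TPM in IR+NMN. Its second row read 9.24, 8.17 and 9.06 TPM in Sham, 109, 87.1 and 81.9 TPM in IR, and 119.8, 108 and 129 TPM in IR+NMN. Another row was at 0.430, 0 and 0 TPM in Sham, and between 12.1 and 29.1 TPM in the other 6 libraries. If only the highest row of each gene is used, the change of Hspd1 turns to -0.97 in IR against Sham (adjusted p = 0.00443) and -0.57 in IR+NMN against Sham (adjusted p = 0.0229), so the direction given for this gene depends on summing. RefSeq lists 20 pseudogenes of Hspd1. The rows of Hspe1 moved together: the highest had means of 217, 409 and 408 TPM in Sham, IR and IR+NMN, and the next had 138, 272 and 354 TPM.

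**Figure D3:**
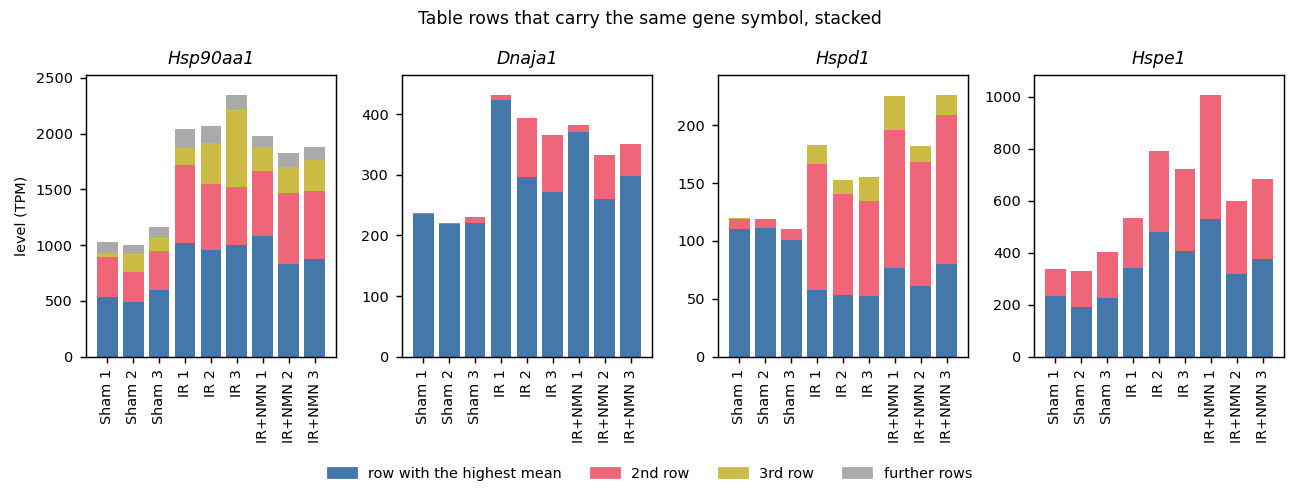
TPM of each table row (stacked parts of a bar) that carries the symbol Hspd1, Hspe1, Dnaja1 or Hsp90aa1, by library. The highest Hspd1 row is smaller in every IR and IR+NMN library than in Sham, and the second row (8.17 to 9.24 TPM in Sham) and the other row together make up the rest of the bar in the occluded groups.

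Hspd1 and Hspe1 are neighbours read in opposite directions. In RefSeq's annotation of the rat build GRCr8 their starts lie 290 bases apart on chromosome 9, with Hspe1 on the plus strand, so that 1 stretch serves as upstream sequence of both. The stretch is shown because both genes were higher in IR+NMN than in Sham and because it holds the arrangement that HSF1 binds, the heat shock element, built from GAA units in alternating orientation. The search used GAANNTTCNNGAA and TTCNNGAANNTTC, which are each other's reverse complement and so cover both strands, in the window from 250 bases before to 50 after each gene's start. The window from chr9:64084077-64084287 reads as follows on the plus strand, with overlapping matches to both forms in capitals.
Hspd1 and Hspe1, shared window: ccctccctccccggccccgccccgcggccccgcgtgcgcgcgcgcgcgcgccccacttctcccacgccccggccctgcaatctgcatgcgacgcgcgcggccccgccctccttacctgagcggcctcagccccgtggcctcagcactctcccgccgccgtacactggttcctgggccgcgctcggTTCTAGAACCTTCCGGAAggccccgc
The capitals span positions 64084262 to 64084279, 65 bases before the start of Hspe1 and 242 before that of Hspd1.

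Beyond this pair, 4 members held a match to the element. Promoter sequences matched 57 of the 69 symbols found by the rule, taken before the filter on low values. Of the 57, 6 (10.5%) held a match, beside 267 of all 33469 promoters (0.798%) and 37 of the 8226 promoters of tested genes (0.450%). Hspa8 held a pair of matches. The sequences of the remaining members are given 5′ to 3′ on the strand of the gene, which is the plus strand for each, with the match in capitals.
Dnaja1 (chr5:60638405-60638433): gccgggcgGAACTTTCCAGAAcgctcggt
Hsph1 (chr12:10427324-10427352): gccgcagaTTCTGGAAAGTTCtcctcagt
Cct4 (chr14:101193074-101193102): gcgtcgctTTCTGGAAGGTTCgtggaggc
Hspa8, outer match (chr8:50080293-50080321): gcgagcgtGAAAGTTCCAGAAcgctgcgg
Hspa8, inner match (chr8:50080451-50080479): cggaacccTTCTGGAAGGTTCtaagacag
The matches lay 10 bases after the start in Dnaja1, 26 after it in Cct4, 36 before it in Hsph1, and 213 and 55 before it in Hspa8. Among the 10 matched members that were higher in at least 1 comparison, 4 held the element, and among the other 47, 2 did. The 4 include Hspd1 and Hspe1, which share 1 stretch, so the same site is counted for both genes. Hspd1 was higher only with its rows summed. These are counts of letters, not of bound sites, and the difference between the groups of members was not tested. Hsp90aa1 had no entry among the promoter sequences.

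HSP70 genes, the most abundant family after HSP90, held no call in IR against Sham. Hspa8, the constitutive HSC70, was the highest member of all on average in Sham, with 1890.4, 1794 and 1889 TPM there, 2252, 1840.1 and 1933 TPM in IR, and 2184, 2025 and 2063 TPM in IR+NMN. IR overlapped Sham, with a change of 0.11 (adjusted p = 0.582), and IR+NMN lay above Sham in each library, with a change of 0.17 (adjusted p = 0.376). RefSeq lists 33 pseudogenes of Hspa8. The median change of the 11 HSP70 members was 0.09 in IR against Sham, 0.05 in IR+NMN against IR and 0.17 in IR+NMN against Sham. With median-of-ratios scaling these medians were 0.30, -0.01 and 0.32, and with quantile scaling 0.26, 0.02 and 0.23. In IR against Sham 1 of the 11 was called under each, beside 561 and 582 of all 10180 genes.

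The inducible HSP70 genes were low. Hspa1b read 10.2, 12.5 and 9.75 TPM in Sham, 31.9, 16.6 and 14.7 TPM in IR, and 13.0, 22.8 and 21.9 TPM in IR+NMN. Both occluded groups lay above Sham, but with wide spread, and neither change passed the test: 0.83 (SE 0.30, adjusted p = 0.118) and 0.75 (SE 0.30, adjusted p = 0.136). Both were called under either other scaling, and also with a covariate for the share of ribosomal proteins, where the changes were 1.19 (adjusted p = 0.00798) and 1.35 (adjusted p = 0.0104). The near-identical copy Hspa1a stayed between 0.451 and 2.27 TPM in all libraries, and reads of the copies may have been split. Hspa1l, a relative next to them in the genome, ranged from 1.37 to 3.75 TPM, with overlap between the groups.

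Hspa2, best known as a testis HSP70 and also made in brain, was the member that differed between the occluded groups. It read 16.1, 15.1 and 12.1 TPM in Sham, 13.3, 9.46 and 10.6 TPM in IR, and 20.3, 20.4 and 22.6 TPM in IR+NMN. The IR+NMN libraries lay above all others, and IR overlapped Sham. Hspa2 rose by 0.87 in IR+NMN against IR (SE 0.16, adjusted p = 0.0265), with changes of -0.35 in IR against Sham (adjusted p = 0.181) and 0.53 in IR+NMN against Sham (adjusted p = 0.0633). The call was lost when Sham 2, IR 2 or IR 3 was left out, and likewise for IR+NMN 1 and IR+NMN 3, with an adjusted p of up to 0.144, and with quantile scaling or a fit of only these 2 groups. Summed microglia and phagocyte markers were also higher in IR+NMN (270 to 1004 TPM) than in IR (186 to 189 TPM), and their part in this difference was not tested.

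Hspa14, an HSP70-like protein of the ribosome, read 27.8, 25.5 and 25.6 TPM in Sham, 29.5, 33.8 and 30.5 TPM in IR, and 33.3, 35.7 and 35.7 TPM in IR+NMN. It rose by 0.40 in IR+NMN against Sham (SE 0.11, adjusted p = 0.0471), a call that held in 1 of the 9 fits that left out a library, the one without IR 1, and was otherwise lost with an adjusted p of up to 0.166. It was also lost with the ribosomal covariate (adjusted p = 0.104), without trend and robust moderation, and in a fit of only these groups. Hspa9, the mitochondrial HSP70 also called mortalin, averaged 38.0 ± 3.47 TPM in Sham, 40.2 ± 8.44 TPM in IR and 43.6 ± 3.95 TPM in IR+NMN. Its groups overlapped, and its change was 0.06 in IR (adjusted p = 0.82). Hspa4, Hspa4l and Hsph1 belong to the HSP110 group of exchange factors. The families here follow the symbols, so Hspa4 and Hspa4l are counted in the HSP70 sums and medians, and Hsph1 alone makes up HSP110. Hsph1, whose promoter match is shown above, read 151, 125 and 104 TPM in Sham, 213, 140.3 and 142 TPM in IR, and 124, 181 and 142 TPM in IR+NMN. These groups overlapped, with changes of 0.37 (adjusted p = 0.279) and 0.23 (adjusted p = 0.483) against Sham, and the first was called with median-of-ratios scaling. Hspa4 averaged 94.0 ± 10.7, 96.5 ± 26.9 and 96.3 ± 8.50 TPM, and Hspa4l 47.3 ± 3.98, 50.8 ± 10.5 and 47.2 ± 4.49 TPM. Hspa12b, a distant relative made by endothelial cells, had a change of -0.38 in IR (adjusted p = 0.14), with all 3 IR libraries below Sham; it is named after its values were seen, and summed endothelial markers were lower as well.

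The CCT subunits showed small differences in the same direction. All 7 measured subunits had a positive change in all 3 comparisons, with medians of 0.21 in IR against Sham, 0.12 in IR+NMN against IR and 0.33 in IR+NMN against Sham; with median-of-ratios scaling, 5 of the 7 stayed positive in IR+NMN against IR, where none was called. The medians of all genes in these comparisons were -0.21, 0.04 and -0.14. In IR, 1 of the 7 subunits was called higher, Cct5, beside 1.14% of all genes. Without overlap, 4 lay above Sham in IR, beside 7.58% of all genes. In IR+NMN against Sham, 3 of the 7 were called higher, Cct4, Cct5 and Cct6a, beside 4.21% of all genes. There 6 lay above Sham without overlap, beside 13.0% of all genes.

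Cct5, the most abundant CCT subunit on average, read 321, 250.2 and 265 TPM in Sham, 383, 392 and 375 TPM in IR, and 405, 403 and 407 TPM in IR+NMN. The groups formed 3 steps without overlap. Cct5 rose by 0.47 in IR (SE 0.12, adjusted p = 0.0493) and by 0.55 in IR+NMN against Sham (SE 0.12, adjusted p = 0.022), while IR+NMN against IR gave 0.08 (adjusted p = 0.93). The IR call held in the 2 fits without Sham 1 and without IR+NMN 2, and was lost in the other 7 that left out a library (adjusted p at most 0.191), from its highest row alone, with the ribosomal covariate and in a fit of only these groups. The IR+NMN call was lost without Sham 2, Sham 3, IR+NMN 1 or IR+NMN 3 (up to 0.102), with the ribosomal covariate (0.0541) and in a fit of only these groups. Cct4 read 105, 104 and 116 TPM in Sham, 125, 129.99 and 141 TPM in IR, and 177, 131 and 159 TPM in IR+NMN. It rose by 0.51 in IR+NMN against Sham (SE 0.13, adjusted p = 0.0406), and Cct6a, at 139 ± 8.82, 179.7 ± 13.1 and 188 ± 10.2 TPM, rose by 0.43 (SE 0.11, adjusted p = 0.0364). Each of these calls held in 2 of the 9 fits, those without IR 1 and without IR+NMN 2, with an adjusted p of up to 0.145 and 0.115 in the others, and each was lost with the ribosomal covariate (adjusted p = 0.16 and 0.0841) and in a fit of only these groups. Cct4 was also lost with both other scalings, and Cct6a from its highest row alone (adjusted p = 0.112). The remaining subunits differed less: Cct8 averaged 266 ± 16.1, 291 ± 11.5 and 307 ± 39.3 TPM, and Cct7 185 ± 6.93, 187 ± 16.7 and 206 ± 11.02 TPM. Tcp1, the subunit outside the symbol rule, averaged 90.1 ± 5.26, 97.9 ± 5.74 and 109 ± 9.24 TPM, with changes of 0.12 (adjusted p = 0.481) and 0.27 (adjusted p = 0.128) against Sham.

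**Figure D4:**
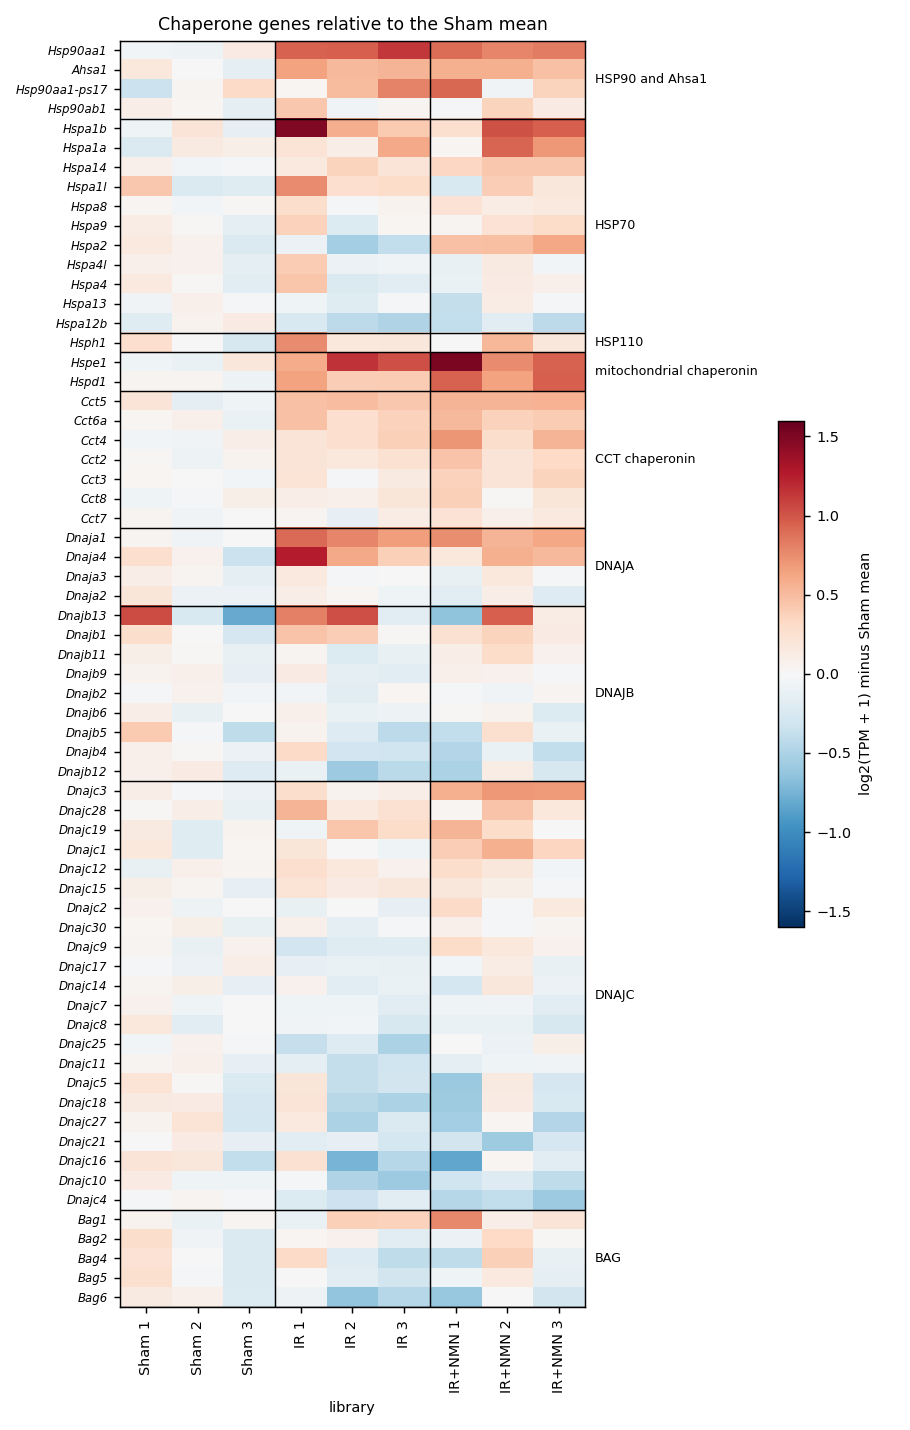
Log2(TPM + 1) of the 65 members in each library, minus the gene's Sham mean, ordered by family. The block of HSP90, chaperonin and CCT genes is mainly above the Sham mean in IR and IR+NMN, and IR 1 and IR+NMN 2 are the highest of their groups in 41 and 36 of the rows.

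Among the 35 J-domain proteins tested, 1 (2.86%) was called in IR against Sham, beside 6.39% of all genes, and it belongs to DNAJA. Dnaja1 (HDJ2), a partner of cytosolic HSC70, read 236, 219.8 and 231 TPM in Sham, 431, 394 and 365 TPM in IR, and 383, 333 and 351 TPM in IR+NMN. All 6 libraries with the occlusion lay above Sham. Dnaja1 rose by 0.79 in IR (SE 0.11, adjusted p = 0.00873) and by 0.63 in IR+NMN against Sham (SE 0.11, adjusted p = 0.011), and IR+NMN against IR gave -0.16 (adjusted p = 0.691). Both calls were lost only without Sham 2 among the fits that left out a library (adjusted p of 0.0545 and 0.0589), and also when only the highest row of the gene was used, where the changes were 0.52 (adjusted p = 0.122) and 0.44 (adjusted p = 0.158). That row read 236, 219 and 220.2 TPM in Sham and 423, 296 and 272 TPM in IR. The second row was at 0.0706, 0.535 and 10.4 TPM in Sham, 7.62, 98.1 and 93.6 TPM in IR, and 11.5, 72.1 and 53.4 TPM in IR+NMN, so its weight differed between libraries of the same group.

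Dnaja2, which shares its role with Dnaja1, was not called. It averaged 224 ± 26.3 TPM in Sham, 227 ± 13.7 TPM in IR and 209.9 ± 25.5 TPM in IR+NMN, with overlap throughout and a change of 0.02 in IR (adjusted p = 0.92). From its highest row alone the change was 0.53 (adjusted p = 0.0255), about that of the highest Dnaja1 row, so the contrast between these genes is seen with summed rows and not with the highest row. The ratio of Dnaja1 to Dnaja2 from summed rows, chosen after its values were seen, had a mean of 1.03 ± 0.0898 for Sham, 1.75 ± 0.0416 for IR and 1.72 ± 0.285 for IR+NMN, with no overlap with Sham (exact permutation p = 0.1, the smallest possible; 0.18 after adjustment). Dnaja4 read 92.5, 80.8 and 60.4 TPM in Sham, 185, 117 and 100.5 TPM in IR, and 86.6, 114 and 110.4 TPM in IR+NMN. IR lay above Sham with a change of 0.75 (SE 0.24, adjusted p = 0.0915), which was called under both other scalings and with the ribosomal covariate.

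No DNAJB member was called in any comparison of the main fit, and none had an unadjusted p under 0.05 there. With quantile or median-of-ratios scaling, 1 of the 9 was called in IR+NMN against Sham under each, beside 1409 and 1282 of all 10180 genes. Dnajb1 (HSP40), the textbook inducible partner of HSP70, read 67.0, 54.6 and 45.6 TPM in Sham, 75.8, 72.4 and 55.8 TPM in IR, and 65.2, 70.7 and 60.4 TPM in IR+NMN. The groups overlapped, with changes of 0.29 (adjusted p = 0.284) and 0.24 (adjusted p = 0.358) against Sham. Dnajb2, Dnajb5 and Dnajb6, the most abundant of the family, averaged 102 ± 4.38, 102 ± 29.3 and 94.8 ± 7.64 TPM in Sham and 97.6 ± 6.59, 87.7 ± 14.7 and 92.5 ± 6.44 TPM in IR. Dnajb4 averaged 31.6 ± 2.01, 30.0 ± 8.13 and 25.2 ± 3.53 TPM, and its IR+NMN libraries lay below Sham with a change of -0.32 (adjusted p = 0.27), called without IR 1 and IR+NMN 2. Dnajb13, a protein of motile cilia, spanned 10.2 to 39.3 TPM within Sham alone. The DNAJB median was -0.07 in IR against Sham, 0.05 in IR+NMN against IR and -0.01 in IR+NMN against Sham; with median-of-ratios scaling these became 0.14, -0.02 and 0.14, so no direction can be given for the family.

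DNAJC is the largest and most mixed family, and 2 of its 22 measured members were called. Both calls were in IR+NMN against Sham, where 10.3% of all genes were called, so this count is not above the background. Dnajc3, the endoplasmic reticulum co-chaperone P58IPK, read 14.2, 12.9 and 12.1 TPM in Sham, 16.1, 13.6 and 14.1 TPM in IR, and 19.8, 21.7 and 21.5 TPM in IR+NMN. The IR+NMN libraries lay above all 6 others. Dnajc3 rose by 0.65 in IR+NMN against Sham (SE 0.12, adjusted p = 0.013), a call lost without Sham 2, Sham 3 or IR+NMN 3 (adjusted p at most 0.0637). Against IR the change was 0.50 (SE 0.12, adjusted p = 0.0708), and it was called with the ribosomal covariate at 0.55 (adjusted p = 0.0268). Dnajc4, a little studied J-domain protein, read 26.6, 28.0 and 26.7 TPM in Sham, 23.2, 21.3 and 23.7 TPM in IR, and 19.4, 20.4 and 17.7 TPM in IR+NMN. The groups descended without overlap. It fell by 0.48 in IR+NMN against Sham (SE 0.11, adjusted p = 0.0266), which is relative to a median of all genes of -0.14; the call was lost with both other scalings, with the ribosomal covariate (adjusted p = 0.0776), in a fit of only these groups, and in 6 of the 9 fits that left out a library (each Sham library, IR 3, IR+NMN 1 and IR+NMN 3; largest adjusted p 0.113).

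The neuronal and abundant DNAJC genes showed no call. Dnajc5, the cysteine string protein of synaptic vesicles, averaged 144 ± 22.3 TPM in Sham, 129.6 ± 29.3 TPM in IR and 123 ± 32.3 TPM in IR+NMN. Dnajc7, which has TPR repeats that bind HSP70 and HSP90, averaged 108 ± 4.84, 101 ± 3.94 and 101 ± 4.74 TPM. Dnajc19, a part of the mitochondrial import motor, averaged 129 ± 14.9, 151 ± 26.7 and 158 ± 29.2 TPM. Over the 22 members, 7 lay below Sham in IR without overlap, beside 26.7% of all genes, and 2 above, beside 7.58%. Both counts are near the shares over all genes. The DNAJC median was -0.12 in IR against Sham, 0.01 in IR+NMN against IR and -0.04 in IR+NMN against Sham, and became 0.06, -0.05 and 0.10 with quantile scaling.

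BAG proteins, which release nucleotide from HSP70, held no call, and no member reached an unadjusted p of 0.05. Bag1, which links HSP70 to the proteasome, read 50.7, 45.5 and 50.6 TPM in Sham, 45.3, 64.1 and 63.6 TPM in IR, and 84.1, 52.7 and 56.5 TPM in IR+NMN. IR+NMN lay above Sham, with a change of 0.36 (SE 0.20, adjusted p = 0.255) that turned to -0.04 with the ribosomal covariate, and the change in IR turned from 0.22 to -0.02. Bag6, a quality control factor for tail-anchored membrane proteins, averaged 61.0 ± 8.06, 46.7 ± 9.49 and 49.8 ± 10.7 TPM, with a change of -0.39 in IR (adjusted p = 0.225) that became -0.54 (adjusted p = 0.0433) without IR 1 and IR+NMN 2. Bag5 averaged 41.9 ± 7.22, 37.2 ± 3.98 and 41.1 ± 4.81 TPM. The BAG median was -0.10 in IR and -0.02 in IR+NMN against Sham, which became 0.12 and 0.11 with quantile scaling, and it was 0.10 between the occluded groups.

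The families do not map onto 2 compartments alone. By textbook location, the members also include proteins of the endoplasmic reticulum, among them Dnajb9, Dnajb11, Dnajc1, Dnajc3 and Dnajc10. In IR+NMN against IR limma called none of these, with 2 at an unadjusted p under 0.05 (Dnajc1 and Dnajc3), beside 1359 of all 10180 genes. Dnajb11, a partner of the reticulum's HSP70, averaged 44.6 ± 3.20, 41.7 ± 4.08 and 49.9 ± 4.27 TPM, with a change of 0.25 against IR (adjusted p = 0.415), and Dnajc1 averaged 3.86 ± 0.605, 3.996 ± 0.475 and 5.54 ± 0.537 TPM, with a change of 0.39 (adjusted p = 0.282). Both were named after their values were seen. Among mitochondrial members other than the chaperonin, Dnajc11, a partner of the complex that shapes cristae, averaged 52.3 ± 4.29 TPM in Sham and 42.7 ± 3.62 TPM in IR, with a change of -0.28 (adjusted p = 0.137).

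Genes that work with these families but lie outside the symbol rule were taken from a list of 42 tested genes. In IR against Sham, 4 were higher and 2 lower, beside 1.14% and 5.26% of all genes. In IR+NMN against Sham, 5 were higher and 2 lower, beside 4.21% and 6.13% of all genes. The higher genes were 9.52% and 11.9% of the list, while 2 lower of 42 is not above the share of all genes. In IR+NMN against IR limma called 0, with 1 at an unadjusted p under 0.05, beside 1359 of all 10180 genes. The higher genes all came from the 21 co-chaperones of HSP90 and HSP70. Cacybp, the calcyclin-binding protein, averaged 63.2 ± 1.36 TPM in Sham, 111 ± 3.14 TPM in IR and 107 ± 17.9 TPM in IR+NMN, and rose by 0.80 (adjusted p = 0.0133) and 0.74 (adjusted p = 0.00979) against Sham. The immunophilin Fkbp4 averaged 204 ± 23.3, 304 ± 18.5 and 303 ± 20.7 TPM and rose by 0.58 (adjusted p = 0.0297) and 0.57 (adjusted p = 0.0208). The cyclophilin Ppid averaged 67.3 ± 7.66, 104 ± 3.57 and 97.0 ± 12.6 TPM and rose by 0.62 (adjusted p = 0.0298) and 0.52 (adjusted p = 0.0384). Stip1 (HOP), which bridges HSP70 and HSP90, averaged 156 ± 3.60, 218 ± 9.29 and 211 ± 15.2 TPM and rose by 0.48 (adjusted p = 0.0291) and 0.43 (adjusted p = 0.0291).

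In each of these 4 genes all libraries with the occlusion lay above all Sham libraries. St13, the HSP70-interacting protein HIP, averaged 96.7 ± 3.77, 109 ± 4.81 and 124 ± 6.23 TPM and rose in IR+NMN against Sham by 0.35 (adjusted p = 0.0487). Of the calls against Sham, that of Cacybp in IR+NMN held in all 9 fits that left out a library, and its IR call was lost without Sham 2, IR 2 or IR 3. The IR calls of Fkbp4, Ppid and Stip1 were lost without Sham 2, Sham 3, IR 2, IR 3 or IR+NMN 3, and that of Stip1 without Sham 1 as well. The IR+NMN calls of Fkbp4, Ppid, Stip1 and St13 were lost without Sham 2, Sham 3, IR+NMN 1 or IR+NMN 3, those of Stip1 and St13 also without Sham 1, those of Ppid and St13 without IR 2, and those of Ppid, Stip1 and St13 without IR 3. The adjusted p reached 0.152 in these fits. With the ribosomal covariate, Ppid, Stip1 and St13 were lost in IR+NMN (adjusted p = 0.149, 0.088 and 0.123), and in a fit of only these groups Fkbp4 was lost as well; Ppid was also lost from its highest row, and St13 with a filter of 5 TPM and without trend and robust moderation. The HSP90 co-chaperone Cdc37, which serves kinases, averaged 204 ± 8.95, 195 ± 15.9 and 198 ± 8.69 TPM, with a change of -0.06 in IR (adjusted p = 0.723). The lower genes, which are given as values of single genes, were Vbp1, a prefoldin subunit that hands chains to CCT, and Spg7, a protease of the mitochondrial inner membrane. Vbp1 averaged 73.6 ± 7.70, 41.0 ± 6.91 and 38.8 ± 3.36 TPM, and fell by 0.84 in IR (adjusted p = 0.0196) and by 0.90 in IR+NMN (adjusted p = 0.00846). The IR call was lost without Sham 1, Sham 2, Sham 3 or IR 2 and with both other scalings, and the other held in all 9. Spg7 averaged 27.6 ± 2.42, 16.5 ± 2.90 and 15.96 ± 2.20 TPM, and fell by 0.72 (adjusted p = 0.0377) and 0.76 (adjusted p = 0.0211), calls that were lost without Sham 2 or Sham 3, in IR also without Sham 1, IR 2, IR 3 or IR+NMN 3, and in IR+NMN also without IR+NMN 1 or IR+NMN 3 and with the ribosomal covariate (adjusted p = 0.0893). The transcription factor gene Hsf1 averaged 25.8 ± 2.93, 24.5 ± 3.49 and 24.5 ± 3.75 TPM, and none of the 3 regulators tested was called. Trap1, the HSP90 of mitochondria, averaged 52.6 ± 1.32, 42.6 ± 2.77 and 48.0 ± 1.29 TPM, with all IR libraries below Sham and a change of -0.30 (adjusted p = 0.0885).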

How the data were processed

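Total RNA of rat brain was amplified with Smart-Seq2, per the labels' protocols. The authors deposited TPM per table row, with each library summing to 1000000. STAR, Cufflinks and the human build hg38 are named in the submitters' processing notes although the samples are from rat; the sources used here give no versions, annotation or counting rules. Sequencing depth is unknown. Of 131003 rows, 27683 carried a symbol; they held 72.7% to 78.7% of the TPM and were summed to 12609 symbols. Genes with at least 1 TPM in 3 libraries (10180) were fitted on log2(TPM + 1) with limma 3.58.1 in R 4.3.3 (trend and robust moderation), all 9 libraries in 1 model of 3 groups, Benjamini-Hochberg adjustment over all genes and a threshold of 0.05. Fold changes of low genes are understated on this scale. The script was tested on simulated data. The labels give no batch. Named members are those called, the 3 most abundant of each family, classical heat shock genes and those next to the filter; members and lists were chosen with earlier results of these data known. Promoter sequences are from RefSeq (GRCr8).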

Additional observations from a re-analysis of the deposited data

How the results depend on the processing

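The members called numbered 5 for IR against Sham, 1 between IR+NMN and IR, and 11 for IR+NMN against Sham; in this order, leaving out 1 library at a time gave 1 to 6, 0 to 1 and 2 to 12, with the fewest in the comparisons with Sham reached without Sham 2. Quantile scaling gave 10, 0 and 14, beside 582, 7 and 1409 calls over all genes. Median-of-ratios scaling gave 10, 1 and 13, beside 561, 73 and 1282. Only the 2 groups compared gave 4, 0 and 5, beside 672, 2 and 620. A covariate for ribosomal proteins gave 6, 2 and 7, beside 547, 480 and 403. Without both IR 1 and IR+NMN 2 the counts were 9, 2 and 16, beside 2514, 533 and 2989 calls over all genes. With the replicate number as a block they were 2, 0 and 4, beside 100, 33 and 499 calls over all genes. Correlations of the deviations ran from -0.568 to 0.492 for same-numbered libraries and from -0.543 to 0.576 for differently numbered ones. With 3 libraries per group these values cannot settle whether the numbers pair the samples. A pseudocount of 0.1, no filter and a filter of 5 TPM left each count within 1.5 times. Over all genes, leaving out 1 library gave 74 to 1138, 0 to 496 and 276 to 2168 calls against 651, 240 and 1053. With the highest row per gene in place of the sum, the change of Hspd1 reversed, to -0.97 in IR and -0.57 in IR+NMN against Sham. Of the 30 calls of genes named, 5 held in every fit without 1 library (Hsp90aa1 in both comparisons with Sham, and Hspd1, Cacybp and Vbp1 in IR+NMN against Sham), and 26 held with each other scaling. The cause of these shifts was not tested.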
